A study of Mus musculus with 2 samples.

Results

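The 4 Hox gene clusters were examined for binding of Isl1, a LIM homeodomain transcription factor that marks cardiac progenitors of the second heart field (SHF), in the cardiogenic region of mouse embryos. The members were 38 protein-coding Hox genes, 10 in Hoxa, 10 in Hoxb, 9 in Hoxc and 9 in Hoxd, and a ChIP-Seq peak belonged to them when the authors had named a member as the gene of the closest transcription start site (TSS). This held for 24 of 48295 peaks. The material was heart region and cardiogenic mesoderm of wild-type C57BL/6 embryos at E8.25-E9, of which 60 to 80 were pooled, crosslinked and precipitated with an anti-Isl1 antibody. The peak list was deposited under 1 such sample, with no separate list per replicate, so no spread between replicates could be given here. Whether it already keeps only peaks common to replicates is not stated, and the signal of its input sample was not analysed here. The list gives positions and distances but no peak height and no read number. Its depth is unknown, and a peak that is missing cannot be told apart from one below the calling threshold. A peak list holds no RNA, so the labelled tissue could not be checked against marker genes, and a peak at a Hox gene says nothing of its expression. Intervals below are exact 95% intervals that cover counting error only.

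Hox genes encode homeodomain transcription factors that give cells their position along the head-to-tail axis. Within each cluster the genes stand in 1 order and read in 1 direction: paralogue group 1 at the 3′ end is switched on first and most anteriorly, and group 13 at the 5′ end last and most posteriorly. Retinoic acid opens the 3′ end, Polycomb proteins keep the unused 5′ genes silent, and the TALE proteins Pbx and Meis bind DNA together with Hox proteins. In the heart, anterior Hox genes such as Hoxb1 and Hoxa3 are expressed in part of the SHF that adds cells to the outflow tract and to the inflow region. The genes stand close together, and enhancers of Hoxd and Hoxa lie in large gene deserts on their sides.

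Sequence under 7 of the peaks closest to Hox start sites is shown first, because most such peaks lie on repeats and 2 do not. In the lines below, taken from the mm9 assembly (NCBIM37) on the forward strand and up to 160 bases long, capitals in the first 5 mark an uninterrupted run of pyrimidines (C and T) or of purines (A and G). In the last 2, the peaks at Hoxd8 and Hoxa4, no run of at least 25 bp was present and capitals mark each CG dinucleotide. The lines are centred on the peak midpoints and end at 160 bases, so 80 of the 99 bases of the Hoxc4 run and 114 of the 120 bases of the Hoxb3 run are shown. Only the Hoxd8 line was shifted, to avoid an annotated untranslated part of a transcript.
Hoxb6, chr11:96160101-96160260: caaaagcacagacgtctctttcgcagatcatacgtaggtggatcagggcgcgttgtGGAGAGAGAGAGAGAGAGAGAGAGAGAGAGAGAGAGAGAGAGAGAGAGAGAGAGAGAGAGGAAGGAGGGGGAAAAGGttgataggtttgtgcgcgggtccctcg
Hoxd3, chr2:74549558-74549717: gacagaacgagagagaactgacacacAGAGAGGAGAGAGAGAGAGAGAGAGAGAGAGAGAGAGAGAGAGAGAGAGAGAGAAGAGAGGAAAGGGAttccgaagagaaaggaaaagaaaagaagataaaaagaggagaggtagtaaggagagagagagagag
Hoxc4, chr15:102864133-102864292: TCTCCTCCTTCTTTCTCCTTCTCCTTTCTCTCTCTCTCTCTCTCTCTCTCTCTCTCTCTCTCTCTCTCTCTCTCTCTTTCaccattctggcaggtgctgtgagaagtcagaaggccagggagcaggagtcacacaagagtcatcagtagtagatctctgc
Hoxa13, chr6:52211640-52211799: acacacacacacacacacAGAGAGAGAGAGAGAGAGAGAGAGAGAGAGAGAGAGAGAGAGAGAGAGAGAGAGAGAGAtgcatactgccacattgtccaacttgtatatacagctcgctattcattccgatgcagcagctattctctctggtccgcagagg
Hoxb3, chr11:96202554-96202713: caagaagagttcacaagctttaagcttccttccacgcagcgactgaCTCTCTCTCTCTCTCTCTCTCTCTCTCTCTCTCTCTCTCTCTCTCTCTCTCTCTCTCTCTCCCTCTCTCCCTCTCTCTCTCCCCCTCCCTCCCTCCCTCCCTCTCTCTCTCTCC
Hoxd8, chr2:74543605-74543764: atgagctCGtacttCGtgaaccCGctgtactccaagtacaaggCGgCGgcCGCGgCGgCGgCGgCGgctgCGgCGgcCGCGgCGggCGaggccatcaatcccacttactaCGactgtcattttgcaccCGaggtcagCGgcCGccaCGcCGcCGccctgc
Hoxa4, chr6:52141242-52141401: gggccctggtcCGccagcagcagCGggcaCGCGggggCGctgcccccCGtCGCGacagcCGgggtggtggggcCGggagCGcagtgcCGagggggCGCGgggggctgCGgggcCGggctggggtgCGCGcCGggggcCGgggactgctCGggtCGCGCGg
The runs at Hoxc4 and Hoxb3 are pyrimidines and those at Hoxb6, Hoxd3 and Hoxa13 purines on this strand, and all 5 consist largely of CT or GA repeats. The Hoxd8 and Hoxa4 lines lie in annotated exons and hold 24 CG dinucleotides each, while the 5 others hold between 0 and 8. A run and a high CG content were not exclusive: the peak 122 bp upstream of Hoxc8, which is not printed, held a run of 94 bp, and its ratio of observed to expected CG dinucleotides was 1.18, above those of the Hoxd8 and Hoxa4 peaks.

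Of the 38 Hox genes, 15 had at least 1 peak (39.5%, interval 24.0 to 56.6%), against 51.8% of all 21031 protein-coding genes. The share was below the background, although the interval includes it. A different order was seen close to the start sites. Up to 10 kb from the TSS, 14 Hox genes were bound (36.8%, interval 21.8 to 54.0%), against 25.6% of protein-coding genes. Within 1 kb, 7 had one (18.4%, interval 7.74 to 34.3%), against 5.14%, and here the interval lay above the background. These 7 genes were Hoxa4, Hoxa13, Hoxb6, Hoxc4, Hoxc8, Hoxd3 and Hoxd8, with distances from 6 bp at Hoxd8 to 846 bp at Hoxa13. In 6 of the 7 the midpoint of the peak was upstream of the authors' TSS (85.7%, interval 42.1 to 99.6%), and at Hoxa4 it was 380 bp downstream. By comparison, 49% of all 1245 peaks within 1 kb of a TSS were upstream, a share within that interval. The side depends on the start site used, since the Hoxd8 midpoint lay 331 bp downstream of the closest GENCODE start site.

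**Figure D1:**
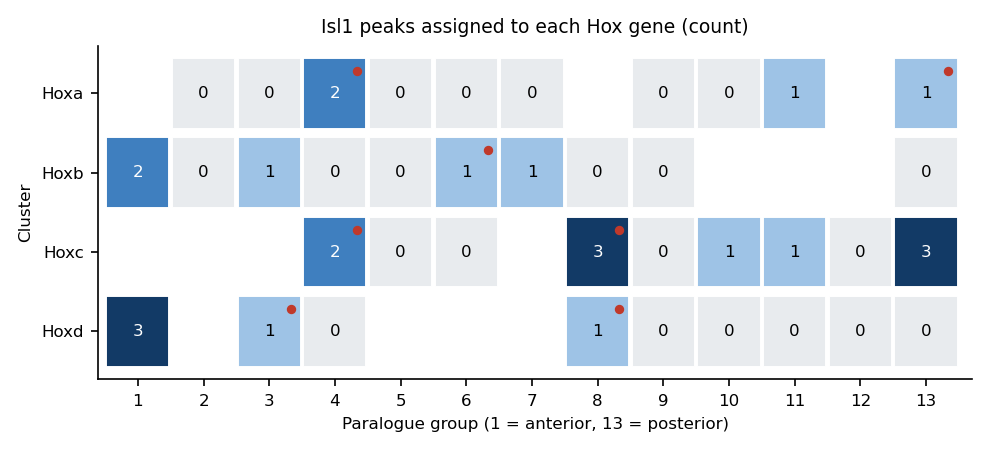
Number of Isl1 peaks assigned to each of the 38 Hox genes, by cluster (rows) and paralogue group (columns). Empty positions hold no member, and a red dot marks a gene with a peak within 1 kb of its TSS. Hoxc8, Hoxc13 and Hoxd1 had 3 peaks each, and 23 genes had 0.

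Assignment to the closest TSS shares peaks out among neighbours, and Hox genes are close neighbours: the median distance from a member's TSS to the closest TSS of another gene was 5.99 kb, against 19.9 kb over all GENCODE protein-coding genes. Genes were therefore also scored by position, whatever gene a peak was assigned to. With GENCODE start sites, 7 of 38 Hox genes had a peak midpoint within 1 kb, against 5.95% of all genes. For 5 kb the count was 15 of 38 (39.5%) against 19.3%, and for 10 kb it was 23 of 38 (60.5%, interval 43.4 to 76.0%) against 32.2%. The lower ends of these intervals lay above the background at all 3 distances. The same held among genes whose closest other TSS lies within 12 kb. Of the 32 Hox genes of this kind, 6 had a peak within 1 kb (18.8%, interval 7.21 to 36.4%), against 3.87% of all such genes. Within 5 kb 13 of 32 had one (40.6%) against 14.6%, and within 10 kb 20 of 32 (62.5%) against 26.1%. Hox genes share neighbourhoods and peaks, so these shares do not rest on independent genes.

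In Hoxa, 3 of 10 genes had a peak. Hoxa4, which acts in the patterning of cervical vertebrae, had 2 peaks, at 380 bp and 2.98 kb downstream of its TSS. The first, chr6:52141116-52141529, lay in its exon, had a GC content of 85.0% around the midpoint and held no longer run than 7 bp. The second lay in an intron of Hoxa3 and held a run of 63 bp. Hoxa11, a regulator of forearm and kidney development, had 1 intergenic peak 4.68 kb upstream with a run of 60 bp. Hoxa13, which patterns digits and the genital tubercle, had its peak 846 bp upstream, just outside the 5′ end of the cluster. Hoxa2, which gives the second pharyngeal arch its identity, Hoxa3, needed for thymus and parathyroid, and Hoxa5, needed for lung and trachea, had 0 peaks. So had Hoxa6, Hoxa7, Hoxa9 and Hoxa10. The longest stretch without a peak in Hoxa ran over 59.2 kb, from the exonic peak of Hoxa4 to the peak of Hoxa11.

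In Hoxb, 4 of 10 genes had a peak and 5 peaks were assigned. Hoxb1, which gives the fourth hindbrain segment its identity and is expressed in posterior SHF cells, had 2 peaks, and both lay past the 3′ end of the cluster, 12.2 and 32.7 kb downstream of the TSS. The closer of them, chr11:96238914-96239585, held a run of 143 bp and the other a run of 120 bp. Hoxb3 had 1 peak 2.45 kb upstream of the authors' TSS, within an intron of longer Hoxb3 transcripts. Hoxb6 had 1 peak 304 bp upstream and Hoxb7 had 1 in its intron, 2.66 kb downstream of its TSS. Hoxb2, Hoxb4, Hoxb5, Hoxb8, Hoxb9 and Hoxb13 had 0. Over the whole Hoxb cluster 7 peaks were found, and 4 of them were assigned to genes that are not Hox genes. These were 3 peaks of Gm53, a predicted gene, at 5.81, 10.5 and 15.5 kb from its TSS, and 1 peak 350 bp from Mir196a-1, a microRNA gene of the cluster whose product targets Hox mRNAs. All 4 lay in the 74.0 kb between Hoxb13 and Hoxb9, a stretch that holds no other member. The density there was 54.0 peaks per Mb (interval 14.7 to 138), and it was 31.0 per Mb (interval 6.39 to 90.6) over the 96.8 kb from Hoxb9 to Hoxb1.

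Hoxc held the most peaks of the 4 clusters. Of its 9 genes 5 had a peak, and 10 peaks were assigned to them. Hoxc8, which acts in thoracic vertebrae and in brachial motor neurons, had 3 peaks, at 6.04 kb and 122 bp upstream and 3.86 kb downstream of its TSS. The widest peak of the clusters, with 770 bp, was the one 122 bp upstream. Hoxc13, which acts in hair and nail formation, had 3 peaks, at 14.4 and 5.57 kb upstream and at 3.19 kb downstream in its intron. Hoxc4 had 2 peaks, 613 bp upstream of the authors' TSS, inside an intron of a longer Hoxc4 transcript, and 30.5 kb downstream of it, past the 3′ end of the cluster. Hoxc10 and Hoxc11 had 1 peak each, 5.62 and 2.81 kb upstream. Hoxc5, Hoxc6, Hoxc9 and Hoxc12 had 0 by this assignment, though the peak 6.04 kb upstream of Hoxc8 lay in an annotated exon of Hoxc9. A further 3 peaks inside Hoxc were assigned to noncoding genes: 1 was 2.39 kb upstream of Hotair, a long noncoding RNA of this cluster, and 2 were 2.74 and 8.40 kb downstream of Mir615, a microRNA gene. Each of the 10 peaks within the Hoxc cluster held a run, of 34 to 112 bp. The longest stretch without a peak was 26.0 kb, the shortest such stretch among the 4 clusters.

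In Hoxd, 3 of 9 genes had a peak. Hoxd1, which acts in the wiring of pain-sensing neurons, had 3 peaks, all past the 3′ end of the cluster at 8.09, 15.4 and 28.3 kb downstream of its TSS. The closest of them, chr2:74608854-74609399, had a run that filled all 200 bp of the window around the midpoint. Hoxd3, which patterns the first cervical vertebrae, had 1 peak 412 bp upstream. Hoxd8 had 1 peak with its midpoint 6 bp upstream of the authors' TSS, chr2:74543288-74543793, where the longest run was 8 bp and the GC content 79.5%. Hoxd4 and all 5 genes of the 5′ end, Hoxd9, Hoxd10, Hoxd11, Hoxd12 and Hoxd13, which build forearm and digits in limb buds, had 0 peaks. The longest stretch without a peak was 53.6 kb, from the Hoxd3 peak to the 3′ end of the cluster. For comparison, 41.0% of 51007 genome windows of 50 kb held no peak at all, and the median window held 1. Of 25461 windows of 100 kb, 18% held none and the median held 2. The stretches given here are the longest of each cluster, so they are not like windows at fixed places.

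**Figure D2:**
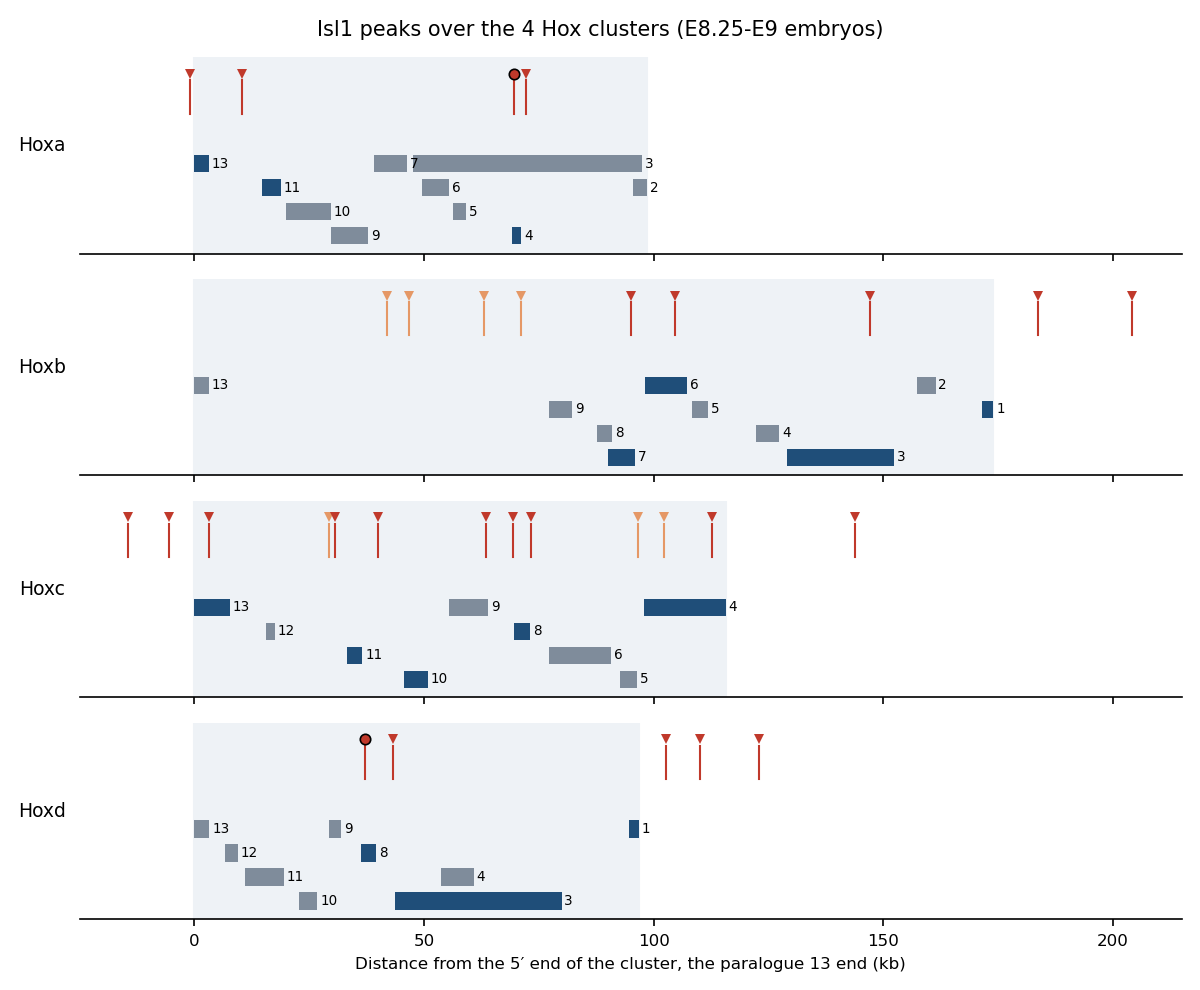
Peaks over the 4 clusters, with the distance in kb from the 5′ end on the x axis, paralogue 13 to the left. Boxes are gene bodies with their paralogue number (dark where a peak was assigned), shading marks the cluster, red and orange markers are peaks assigned to Hox genes and to other genes inside the cluster, triangles hold a run of at least 25 bp and the 2 circled ones, at Hoxa4 and Hoxd8, do not. Other peaks outside the clusters are not drawn.

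By paralogue group, assigned peaks were spread over the axis with gaps. Groups 2, 5, 9 and 12 had 0 assigned peaks in any cluster, over 2, 3, 4 and 2 genes. By position, a peak midpoint still lay 3.73 to 7.80 kb from a TSS of Hoxb5, Hoxc5, Hoxb9, Hoxc9 and Hoxd9, and 1 lay in the Hoxc9 gene body. For Hoxa2, Hoxb2, Hoxa5, Hoxa9, Hoxc12 and Hoxd12 the closest midpoint was further than 10 kb. Both members of group 1, Hoxb1 and Hoxd1, had peaks, 5 in all, and all 5 lay outside the clusters. No paralogue group with 3 or more members had a peak at every member. In groups 4, 8 and 13, 4 peaks each were found, at Hoxa4 and Hoxc4, at Hoxc8 and Hoxd8, and at Hoxa13 and Hoxc13. Of the 7 anterior genes (groups 1 to 3) 4 had a peak, of the 15 central genes (groups 4 to 8) 6, and of the 16 posterior genes (groups 9 to 13) 5. Peaks within 1 kb of a TSS lay at 5 central genes, Hoxa4, Hoxb6, Hoxc4, Hoxc8 and Hoxd8, at 1 anterior gene, Hoxd3, and at 1 posterior gene, Hoxa13. With so few genes the difference between these classes was not tested.

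The inside of the clusters was compared with their flanks and with the genome by the number of peak midpoints per Mb, whatever the assigned gene. From the first to the last member gene the clusters covered 98.5 kb in Hoxa, 174 kb in Hoxb, 116 kb in Hoxc and 96.8 kb in Hoxd. In all 485 kb lay 22 peaks, 15 of them assigned to Hox genes and 7 to other genes, while 9 of the 24 Hox-assigned peaks lay outside. The density was 45.4 peaks per Mb (interval 28.4 to 68.7). In the genome it was 18.9 peaks per Mb (interval 18.7 to 19), so the clusters held 2.40 times the genome's density (interval 1.51 to 3.64). Gene density went the other way in the genome, since 100 kb windows with 5 or more start sites held 15.5 peaks per Mb and those with 8 or more held 15.0. Hoxc had 86.4 peaks per Mb (interval 41.4 to 159), which was 4.58 times the genome (interval 2.20 to 8.42). Hoxb had 40.2 (interval 16.2 to 82.9), Hoxa 30.4 (interval 6.28 to 89.0) and Hoxd 20.7 (interval 2.50 to 74.6), and these 3 intervals include the genome's value. Hoxc gave a large part of the excess: without it, a calculation chosen after its value was seen, 12 peaks lay in 369 kb, or 32.5 per Mb (interval 16.8 to 56.8), which no longer excludes the genome's density. Leaving out another cluster in turn gave 48.2 to 51.5 peaks per Mb.

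The density was also given in steps outside the ends. Within 25 kb outside the clusters lay 8 peaks, 40 per Mb (interval 17.3 to 78.8), and as many between 25 and 50 kb. Both intervals include the genome's density, but with so few peaks per bin they are wide. With the clusters extended by 50 kb on both sides the density was 42.9 per Mb, near the 45.4 inside. That value counts the peaks inside the clusters again, so it is not separate from the 45.4. Whether the higher density reaches past the clusters therefore cannot be told from these counts. The peaks within 50 kb outside were unevenly spread, since the 5′ side of Hoxb had 0 within 50 kb, and Hoxc had 0 within 25 kb on its 3′ side and 0 from 25 to 50 kb on its 5′ side. The density was 20.0 per Mb from 50 to 100 kb, 15.8 from 100 to 250 kb and 13 (interval 8.49 to 19) from 250 to 500 kb. In this last step the 5′ side held 8 per Mb (interval 3.45 to 15.8), below the genome, and the 3′ side 18 (interval 10.7 to 28.4). The flanks reached 1 Mb on either side, except that the 3′ side of Hoxc held only 628 kb of known bases. Over these 7.63 Mb they held 135 peaks, 17.7 per Mb (interval 14.8 to 20.9), close to the genome. Of these, 9 were assigned to members, at Hoxa13, Hoxb1, Hoxc4, Hoxc13 and Hoxd1, the end genes of their clusters among the members. Both sides were alike near the ends, with 4 peaks each within 25 kb and 4 each from 25 to 50 kb. On the 3′ side of Hoxd, where the desert with early limb enhancers lies, 15 peaks fell within 500 kb, 30 per Mb (interval 16.8 to 49.5), and on its 5′ side, where digit enhancers lie, 6 did, 12 per Mb (interval 4.40 to 26.1). Both intervals include the genome's density, and from 500 to 1000 kb the order was the opposite, with 9 peaks on the 3′ side and 14 on the 5′ side. Over 1 Mb the 3′ side of Hoxd held 24 per Mb and the 5′ side 20. Around Hoxa, 9 peaks lay within 500 kb on the 3′ side and 12 on the 5′ side. The nearest protein-coding genes outside the Hox family with a peak were Evx1 and Skap2 around Hoxa, Calcoco2 and Skap1 around Hoxb, Atf7 and Copz1 around Hoxc, and Evx2 and Mtx2 around Hoxd. Mtx2, a gene of mitochondrial protein import next to Hoxd on its 3′ side, had 10 peaks, of which the one nearest to the cluster was 147 kb from it. The Irx genes, another family of homeobox genes in clusters, held 23.6 peaks per Mb (interval 16.1 to 33.6) at Irx1, Irx2 and Irx4 and 30.6 (interval 20.2 to 44.5) at Irx3, Irx5 and Irx6, and these intervals overlap that of the Hox clusters.

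**Figure D3:**
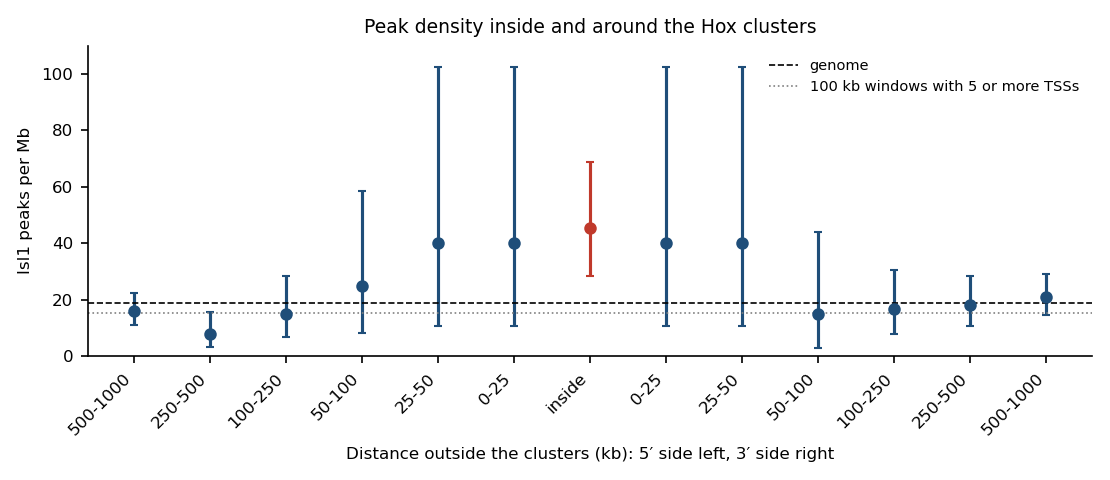
Isl1 peaks per Mb inside the 4 Hox clusters together (red) and in bins of distance outside them (blue, 5′ side to the left, 3′ side to the right). Error bars are exact 95% Poisson intervals, the dashed line is the genome at 18.9 and the dotted line is gene-dense windows at 15.5. The bins up to 50 kb stand at 40 on both sides, near the value inside. Each holds 4 peaks, so its interval is wide and includes the genome. Beyond 100 kb all intervals include the genome but that of 250 to 500 kb on the 5′ side. It stood at 8 per Mb (interval 3.45 to 15.8).

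Counting runs of 25 bp or longer in the 200 bp around each midpoint, a run was present in 22 of the 24 Hox-assigned peaks (91.7%, interval 73.0 to 99.0%) and in 94.1% of all peaks. The runs themselves are unequally spread over the genome, and the Hox clusters are rich in them. The 4 clusters held 214 runs, 441 per Mb, against 186 per Mb in the genome, 2.37 times as many. By cluster the run density was 361 per Mb in Hoxd, 386 in Hoxa, 441 in Hoxc and 517 in Hoxb. A peak covered 29 of the 214 runs (13.6%, interval 9.27 to 18.9%), against 14.3% of runs in the genome. For runs of 50 bp or more, 21 of 64 were under a peak in the clusters (32.8%, interval 21.6 to 45.7%), against 30.5%. Over the 4 clusters together the excess of peaks and the excess of runs were thus of similar size. By cluster they were further apart. Peaks and runs were 1.61 and 2.07 times the genome in Hoxa and 2.13 and 2.78 times in Hoxb. They were 4.58 and 2.36 times the genome in Hoxc and 1.09 and 1.94 times in Hoxd. The intervals of the peak values are wide, and each includes the run value of its cluster. A run in a Hox cluster was under a peak about as often as a run elsewhere. Genome windows of 100 kb with 37 to 51 runs, the range of the 4 clusters and a selection made after their values were seen, held on average 35.1 peaks per Mb over 426 windows, which lies within the interval of the clusters. In Hoxc the interval of 41.4 to 159 lay above that mean. What the runs contribute to the peaks was not tested.

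**Figure D4:**
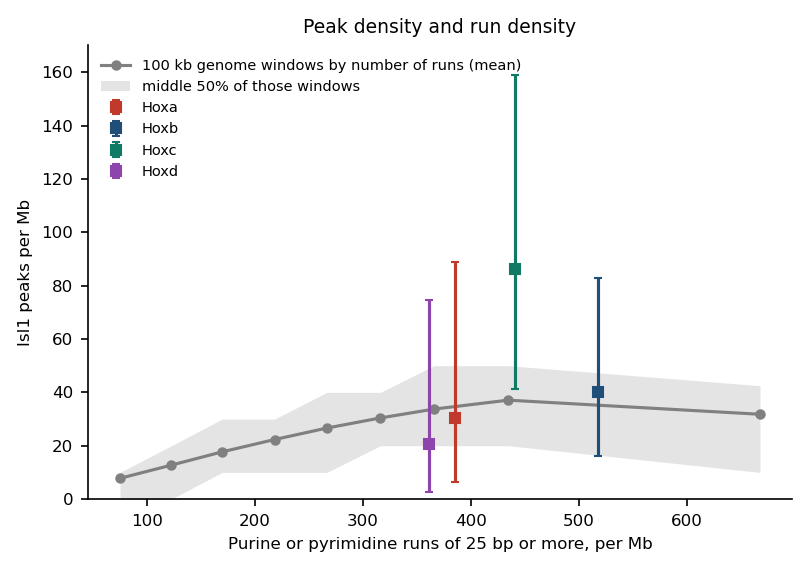
Isl1 peaks per Mb (y axis) against the density of runs, purine or pyrimidine, of 25 bp or longer per Mb (x axis). Gray points are means of 100 kb genome windows grouped by their number of runs, the gray band holds the middle 50% of those windows, and squares are the 4 Hox clusters with exact 95% Poisson intervals. Window means rose from 7.78 to 37.1 and were 31.8 in the 28 windows with the most runs. Of the clusters Hoxc stood furthest above the line, while Hoxa and Hoxd, at 30.4 and 20.7, lay below it with wide intervals.

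The longest run of a Hox-assigned peak had a median of 74 bp (interval 62 to 112), against 92 bp over all peaks. It was 68.5 bp in the 22 peaks inside the clusters and 120 bp in the 9 outside. Runs lay near the middle of the peaks, with a median offset of 34.3 bp from the midpoint in Hox-assigned peaks and 35.5 bp in all peaks. Read along the direction of Hox transcription, 13 runs were pyrimidines and 9 purines. Both peaks without a run were among the 7 within 1 kb of a TSS, 28.6% of them (interval 3.67 to 71.0%), against 49.3% of all peaks within 1 kb. Peaks without a run were thus common near start sites of all genes, and all 17 Hox-assigned peaks further than 1 kb from a TSS held one. Counting only peaks without a run left 2 peaks in the clusters, at Hoxa4 and Hoxd8, or 4.12 per Mb (interval 0.499 to 14.9), against 1.12 per Mb in the genome.

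**Figure D5:**
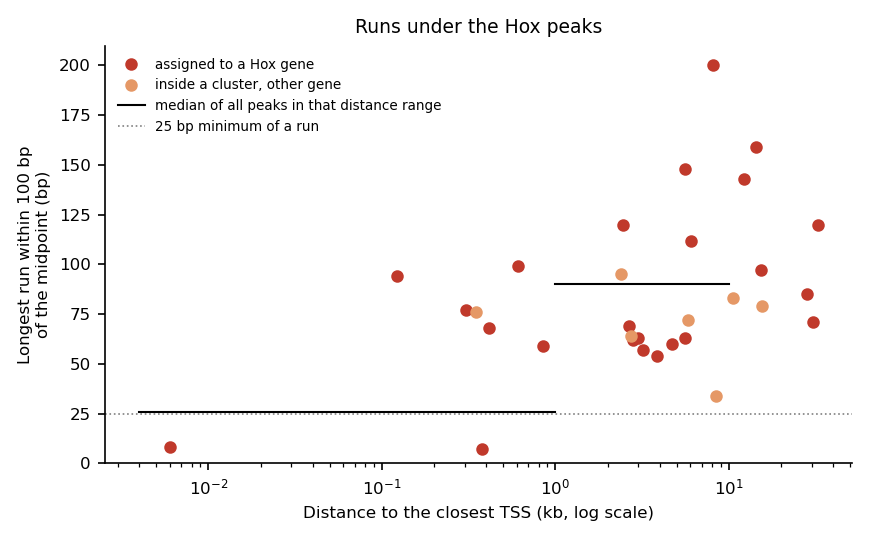
Longest purine or pyrimidine run within 100 bp of the peak midpoint (y axis, bp) against the authors' distance to the closest TSS (x axis, kb, log scale) for the 24 Hox-assigned peaks (red) and the 7 other peaks inside the clusters (orange). Black lines are the medians of all peaks within 1 kb (26 bp) and from 1 to 10 kb (90 bp), and the 2 points below the dotted line at 25 bp are Hoxd8 and Hoxa4.

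Hox-assigned peaks lay closer to their TSS than peaks in general, with a median of 3.53 kb (interval 0.846 to 8.09) against 58.8 kb. The close spacing of Hox genes limits this distance inside a cluster, where the median was 2.66 kb, and the 9 peaks outside had a median of 14.4 kb. Width did not set them apart: the median was 458 bp (interval 394 to 574) against 466 bp, and the range was 258 to 770 bp. By GENCODE, 12 of the 24 midpoints were intergenic, 9 intronic and 3 exonic. TAAT, the core that homeodomain proteins including Isl1 recognise, was found on either strand within 100 bp of the midpoint in 6 of 24 Hox-assigned peaks (25%, interval 9.77 to 46.7%), against 35.3% of all peaks. It was more frequent away from the peaks, in 64.6% of equally long windows centred 1 kb from the midpoint of Hox-assigned peaks, on both sides, and in 73.4% of those beside all peaks. Runs went the other way, with 6.25% of these side windows at Hox-assigned peaks and 3.93% at all peaks holding one. TAAT and the longer forms below mix purines and pyrimidines, so none can lie within a run, and a run leaves less of its window for them. Shares at midpoints and in side windows are therefore not like for like, and what the runs contribute to the difference was not tested. TAAT was in 0 of the 7 Hox-assigned peaks within 1 kb of a TSS (interval 0 to 41.0%) and in 18.5% of all such peaks, a share within that interval. The longer forms CTAATG, which contains TAAT, TGATNNAT, like the site of Hox and Pbx proteins, and TGACAG, the core of the Meis site, were in 0 of 24 peaks each, against 2.64%, 3.77% and 4.65% of all peaks, and a count of 0 in 24 allows a share of up to 14.2% by the exact interval. GAGAGAGA was in 14 of 24 (58.3%, interval 36.6 to 77.9%) and in 55.0% of all peaks.

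Genes that act with the Hox genes or on their expression were counted from lists. The list of TALE cofactors had peaks at 7 of the 8 genes reported here, against 51.8% of protein-coding genes, and 31 peaks in all, with 16 at Meis1 and 0 at Pbx2. All but 2 of the 31 held a run. Up to 10 kb from the TSS, 6 of the 8 were bound, against 25.6% of protein-coding genes. Among retinoid and hindbrain regulators 9 of the 9 genes reported here had a peak, such as Rarb, a retinoic acid receptor, with 13, and Aldh1a2, which makes retinoic acid, with 5. Of these 9 genes, 2 were bound less than 10 kb from the TSS, Rara and Gdf11, a share near that background. Both homeobox genes at the ends of clusters, Evx1 and Evx2, had peaks, 3 and 2, and none within 10 kb. The ParaHox genes, relatives of the Hox genes in a cluster of their own or at scattered sites, had peaks at 5 of 6, with 0 at Cdx1, and 2 were bound up to 10 kb from the TSS. Chromatin regulators of Hox genes had peaks at 10 of 12, with 0 at Suz12 and Ring1, and 11 peaks in all, and 4 of the 12 were bound up to 10 kb from the TSS. Among the 11, 5 peaks held no run: 1 at Bmi1 0.49 kb upstream of the TSS, 1 at Cbx2 0.01 kb upstream, 1 at Ctcf 0.166 kb downstream and 2 at Kdm6b, further than 10 kb from its TSS. A gene with distant neighbours can collect more peaks by the closest TSS, so these counts were not compared with those of the Hox genes.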

How the data were processed

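The authors deposited an Isl1 ChIP-Seq peak list under 1 sample of pooled embryos. Reads were mapped to mm9 with Bowtie2, duplicates were removed with Picard 1.136, MACS called peaks under a p-value threshold that was kept fixed, peaks over the ENCODE blacklist were removed and the gene of the nearest TSS was added. Deposited values are peak positions and a distance to the TSS in bp, without counts, heights or p-values, so the depth of the sample and the precision of a single peak are unknown. The methods describe replicates of the ChIP-Seq and common peaks found between them. Whether this list is 1 experiment or such an intersection is not given in the sources used here.

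A second header line in the list was skipped. Hox peaks were rows whose gene symbol equals 1 of the 38 members. Clusters run from the first to the last member gene body of GENCODE vM1 on NCBIM37, the assembly of mm9, and a peak was inside when its midpoint was. Densities are per Mb of known bases of chromosomes 1 to 19 and X. Sequence was read within 100 bp of each midpoint on the reference strand, and a run is at least 25 consecutive purines or pyrimidines. Motifs were searched on both strands. RefSeq served for protein-coding status and, as an alternative, for matching peaks to genes by accession. Shares have exact Clopper-Pearson intervals, densities exact Poisson intervals and medians binomial order-statistic intervals. With 1 list no test was made. Members, gene lists and the run were chosen with earlier results of these data known. Named were all members, other genes with a peak inside a cluster, the nearest protein-coding neighbours with a peak and the listed cofactors and regulators. Some genes and a sequence under this rule are not reported here. Alternatives covered peak width, runs, distance limits, other start sites, cluster limits and window sizes. The counting steps were tested on simulated data. The work used scipy 1.17.1, pandas 2.3.3, numpy 2.4.6 and matplotlib 3.10.9 in Python 3.11.15, with pysam 0.24.0 for sequence.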

Additional observations from a re-analysis of the deposited data

How the results depend on the processing

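Of 32 alternative values, 19 stayed within the interval of the reported value or within 1.5 times of the reported count. The other 13 were as follows. With peaks wider than the median, which shortens the list by construction, 11 peaks were assigned to 9 Hox genes, 10 peaks lay inside the clusters at 20.6 per Mb and the flanks held 9.44 per Mb. The genome then held 9.42 per Mb. With peaks without a run, 2 peaks were assigned to 2 Hox genes and 2 lay inside the clusters. With clusters extended by 50 kb, 38 peaks lay inside, at a density of 42.9 per Mb that stayed within the reported interval. The genome's density was 18.3 per Mb over full chromosome lengths and 19.1 on the 4 cluster chromosomes. The share of windows without a peak was 41.0% for 50 kb and 4.09% for 200 kb, which follows from their size. With the closest GENCODE protein-coding TSS, 26 peaks were assigned to 15 Hox genes. The leaving out of each cluster was chosen after seeing the data. No paired analysis was possible because the list comes from 1 ChIP sample. The main limits are the single list, the unknown depth and the lack of peak heights and input signal, so neither strength nor background at a Hox gene could be measured.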
